A study of Arabidopsis thaliana with 12 samples.

Results

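NTRC (AT2G41680), AT3G52960 and GLDH (AT3G47930) are nuclear genes of Arabidopsis thaliana for plastid thiol redox control and for ascorbate synthesis. They are 3 of the 692 probes with 1 gene symbol on an array of 3439 probes, namely probe numbers 1759, 1966 and 592. They were picked by their probe numbers, with the values of the mutant and wild type arrays already known, so their differences between the groups are given as a description, with standard errors and no test. Total RNA was measured in 12 samples of ecotype Columbia 0, 6 of wild type (WT) and 6 of the mutant psan, in which PSI-N is missing, a small photosystem I protein of the thylakoid lumen encoded by PSAN (AT5G64040). The mutant allele, the tissue, the age and growth of the plants and the kind of array are not given in the labels. Whether the numbered samples came from separate plants is not stated either, so p-values reflect the spread between arrays alone, and that spread may be technical. The leaf, root and seed markers looked for had no single-gene probe, so the tissue could not be checked.

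Photosystem I passes its electrons to ferredoxin, and from there they reach NADP and, through the ferredoxin-thioredoxin reductase, the plastid thioredoxins that switch enzymes on in the light. NTRC joins an NADPH-thioredoxin reductase and a thioredoxin in 1 protein and so draws on NADPH instead, above all to reduce the 2-Cys peroxiredoxins. AT3G52960 encodes a plastid peroxiredoxin, an enzyme that reduces peroxides with a reactive cysteine. GLDH, L-galactono-1,4-lactone dehydrogenase, carries out the last step of ascorbate synthesis at the inner mitochondrial membrane, where it hands electrons to cytochrome c, and it is also needed for the assembly of mitochondrial complex I. Ascorbate is the main soluble antioxidant of plastids and serves the peroxidases that remove hydrogen peroxide made at photosystem I.

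Intensities were deposited on a linear scale. Between 4.68% and 15.1% of probes stood at exact 0 on an array, but all 3 genes were above 0 on all 12 arrays. WT arrays 1 and 2 stood apart from the other arrays, with 499 and 521 probes at 0 against 161 to 371 elsewhere, and psan arrays had higher medians of log2 intensity (-1.89 to -1.68) than WT arrays (-2.88 to -2.27). Within each group the arrays fell into 3 like pairs, numbers 1 with 2, 3 with 4 and 5 with 6, and the deviations from the group mean correlated within pairs with r from 0.0331 (psan 1 and 2) to 0.601 (WT 1 and 2), above all other pairings of the same group. PSAN, the gene of the missing protein, had a mean intensity 35.9-fold lower in psan than in WT, with no overlap of the groups. On normalised values, 14.2% of the 2243 probes above 0 on all arrays likewise had no overlap in this direction. PSAN still read 0.0681 to 0.243 on the psan arrays. WT values of NTRC (0.113 to 0.247) and AT3G52960 (0.0536 to 0.427) were of similar size. Whether such values lie near the background of the array was not tested. In bulk RNA, fewer cells of a type and less RNA per cell cannot be told apart.

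NTRC, the reductase, had higher deposited intensities on every psan array than on any WT array. The lowest, median and highest values were 0.113, 0.174 and 0.247 in WT and 0.255, 0.320 and 0.456 in psan. The highest WT values came from arrays 3 and 4 and the lowest psan value from array 4, and the gap between the groups was narrow. The mean was 0.181 ± 0.0553 (SD, n = 6) for WT and 0.332 ± 0.0721 (SD, n = 6) for psan, a ratio of 1.84, or 1.59 without WT arrays 1 and 2. Of the 2243 probes above 0 on all arrays, 17.0% were likewise higher in psan with no overlap of deposited intensities.

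Once the arrays were quantile normalised, which gives every array the same distribution of intensities, most of this difference in NTRC was no longer there. WT arrays averaged -2.14 ± 0.27 (SD, n = 6) in normalised log2 intensity, and psan arrays -1.87 ± 0.30 (SD, n = 6). Only psan arrays 2 and 3 lay above all WT arrays, and WT arrays 5 and 6 were the lowest of all. The log2 fold change, psan minus WT, was 0.27 with a standard error of 0.20, against 0.91 ± 0.25 (SE) as deposited. The place of NTRC within the array, as a percentile of all probes, moved in the same small way, from 53.6 ± 5.67 (SD, n = 6) for WT to 59.0 ± 5.94 (SD, n = 6) for psan.

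**Figure D1:**
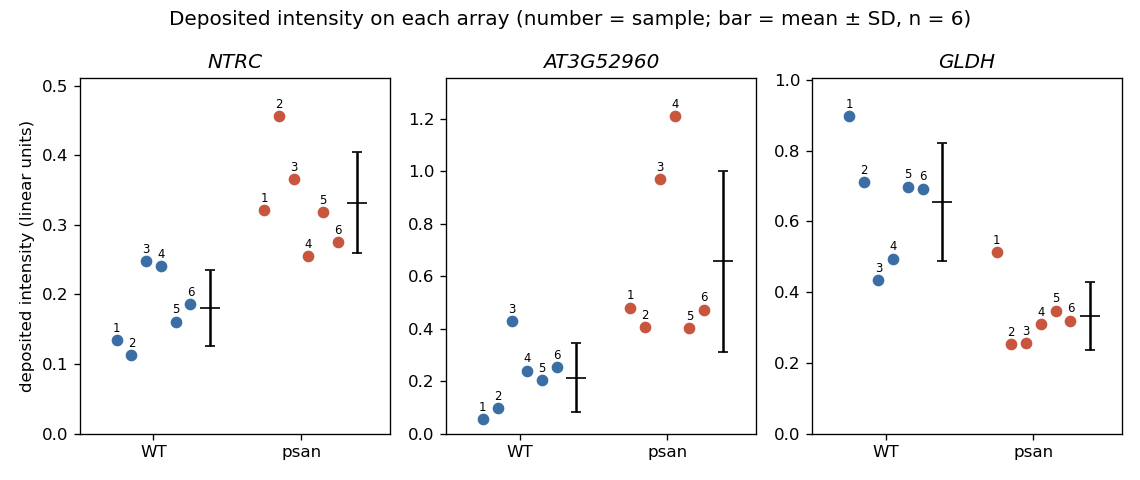
Deposited intensity, in linear units, of NTRC, AT3G52960 and GLDH on each of 6 WT and 6 psan arrays; the number beside a point is the sample number and the bar is the mean ± SD. NTRC did not overlap between the groups, AT3G52960 was highest on psan arrays 3 and 4 (0.969 and 1.21), and GLDH overlapped only through psan array 1 (0.513).

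AT3G52960, the plastid peroxiredoxin, had the widest spread of the 3 genes in log2 intensity within both groups. Its lowest, median and highest deposited intensities were 0.0536, 0.222 and 0.427 in WT and 0.401, 0.476 and 1.21 in psan. The groups met at WT array 3, which exceeded psan arrays 2 and 5. It averaged 0.213 ± 0.132 (SD, n = 6) on WT arrays and 0.656 ± 0.345 (SD, n = 6) on psan arrays, a ratio of 3.08.

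In each group, a pair of neighbouring arrays stood apart in AT3G52960. WT arrays 1 and 2 had a mean of 0.0754, against 0.334 for WT arrays 3 and 4 and 0.229 for WT arrays 5 and 6. In psan, arrays 3 and 4 had a mean of 1.09, and the other psan pairs had 0.442 and 0.437. Without WT arrays 1 and 2 the ratio of the means was 2.33. After normalisation, WT arrays averaged -2.08 ± 0.60 (SD, n = 6) in log2 intensity and psan arrays -0.94 ± 0.82 (SD, n = 6). Psan arrays 3 and 4 alone lay above all WT arrays on this scale. The log2 fold change was 1.14 ± 0.40 (SE), or 0.83 ± 0.41 (SE) without WT arrays 1 and 2.

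GLDH, the ascorbate enzyme, differed in the opposite direction. Its lowest, median and highest deposited intensities were 0.433, 0.695 and 0.897 in WT and 0.253, 0.314 and 0.513 in psan. Of the 6 psan arrays, 5 lay below all WT arrays, and psan array 1 lay above WT arrays 3 and 4. It averaged 0.654 ± 0.167 (SD, n = 6) on WT arrays and 0.333 ± 0.0959 (SD, n = 6) on psan arrays, so WT was higher by a ratio of 1.97, or 1.74 without WT arrays 1 and 2. Psan arrays 1 and 2 differed 2.03-fold from each other in GLDH, more than any other pair of neighbouring arrays for this gene.

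For GLDH, normalisation set the groups further apart. Normalised log2 intensities averaged -0.54 ± 0.52 (SD, n = 6) for WT and -1.89 ± 0.41 (SD, n = 6) for psan. The highest psan array (array 1, at -1.20) lay just below the lowest WT array (array 3, at -1.15), so the groups did not overlap, as held for 14.2% of the 2243 probes in this direction. The log2 fold change was -1.35 ± 0.28 (SE), against -0.98 ± 0.25 (SE) as deposited. The percentile of GLDH within the array was 80.2 ± 6.11 (SD, n = 6) for WT and 58.5 ± 7.95 (SD, n = 6) for psan.

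**Figure D2:**
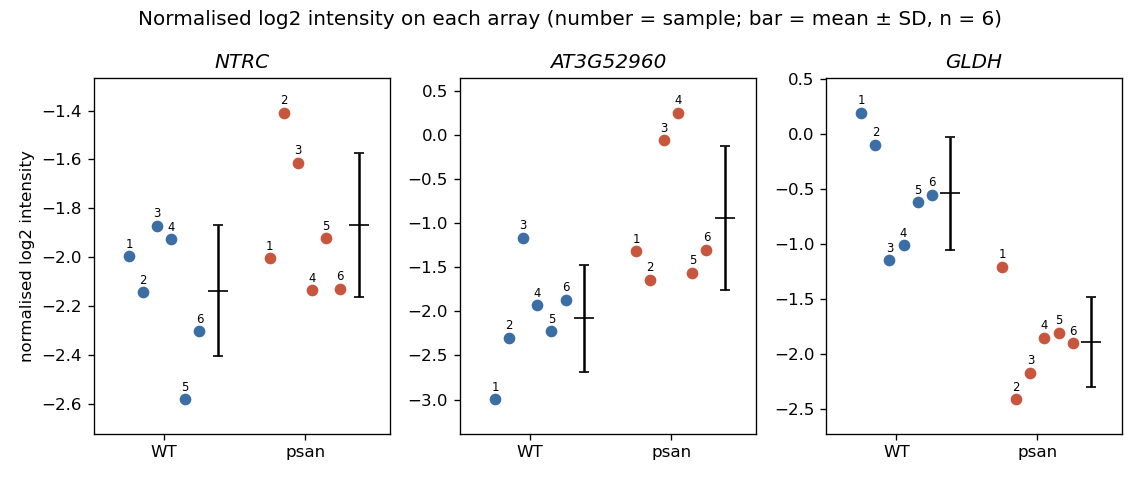
Log2 intensity after quantile normalisation of NTRC, AT3G52960 and GLDH on each array, with sample numbers beside the points and bars for the mean ± SD of 6 arrays. GLDH did not overlap between the groups, whereas NTRC and AT3G52960 did, with only psan arrays 2 and 3 (NTRC) and 3 and 4 (AT3G52960) above all WT arrays.

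With the pairs of like arrays averaged, 3 against 3, the log2 fold changes were the same but their standard errors rose, to 0.30 for NTRC, 0.55 for AT3G52960 and 0.37 for GLDH. Leaving out each array in turn gave log2 fold changes from 0.18 to 0.32 for NTRC, from 0.91 to 1.32 for AT3G52960 and from -1.51 to -1.19 for GLDH.

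On some arrays, extremes of the genes met. On the normalised scale, WT array 1 had the lowest AT3G52960 value of its group (-3.00) and the highest GLDH value (0.19), and WT array 3 had the highest AT3G52960 value (-1.16) and the lowest GLDH value (-1.15). Psan array 2 had the highest NTRC value of its group (-1.41), the lowest GLDH value (-2.41) and the lowest AT3G52960 value (-1.64). No test was made of these patterns, since 6 arrays in 3 like pairs are too few independent samples.

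The fold change on these arrays also followed the probe number, in a repeating period of 24 rows of 12 numbers. AT3G52960 and GLDH lay in rows whose median had the sign of their own value, and NTRC in a row of the opposite sign. AT3G52960 stood in row 20, which had the highest median log2 fold change of all rows, 0.58. Of the 139 other probes in that row, 104 were higher in psan, 102 had a lower fold change than AT3G52960 and 37 a higher one. GLDH stood in row 2, the row with the third lowest median, -0.60, where 113 of the 143 other probes were lower in psan. Of those 143, 12 had a lower fold change than GLDH. NTRC stood in row 3, with the second lowest median, -0.71, where 107 of 134 other probes were lower in psan. NTRC was higher than 114 of them.

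**Figure D3:**
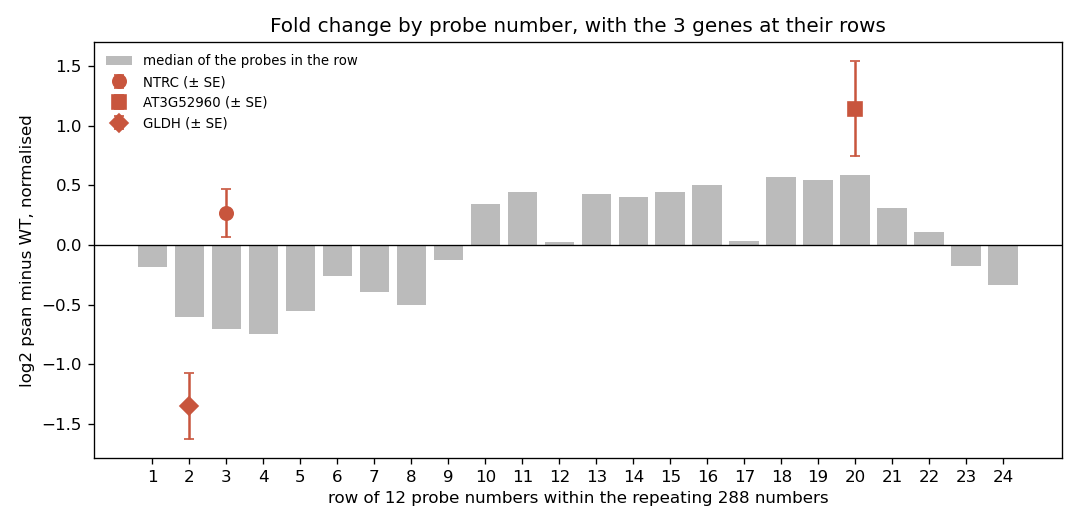
Median log2 fold change (psan minus WT, normalised) of the probes in each of 24 rows of 12 probe numbers (grey bars), with the fold changes of NTRC, AT3G52960 and GLDH ± SE at their rows. AT3G52960 (1.14) lies in the row with the highest median, GLDH (-1.35) in a low row, and NTRC (0.27) above the median of its low row (-0.71).

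The probes at exactly the same place in other periods, which are part of the same rows, showed the same pattern. For AT3G52960, 10 of 14 such probes were higher in psan, with a median log2 fold change of 0.63. For GLDH and NTRC, 9 of 13 each were lower, with medians of -0.31 and -0.73. When each array was corrected for the rows and columns of the probe numbers, the order of the 3 genes changed. The log2 fold change was then 1.07 ± 0.23 (SE) for NTRC, 0.52 ± 0.28 for AT3G52960 and -0.74 ± 0.27 for GLDH. NTRC no longer overlapped between the groups on that scale, from -3.02 to -2.20 in WT and from -1.90 to -0.92 in psan. Of the 2243 probes above 0 on all arrays, 10.3% were likewise higher in psan with no overlap. GLDH and AT3G52960 did overlap. The labels do not say what the probe number stands for on the array, and its part in these differences was not tested further.

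**Figure D4:**
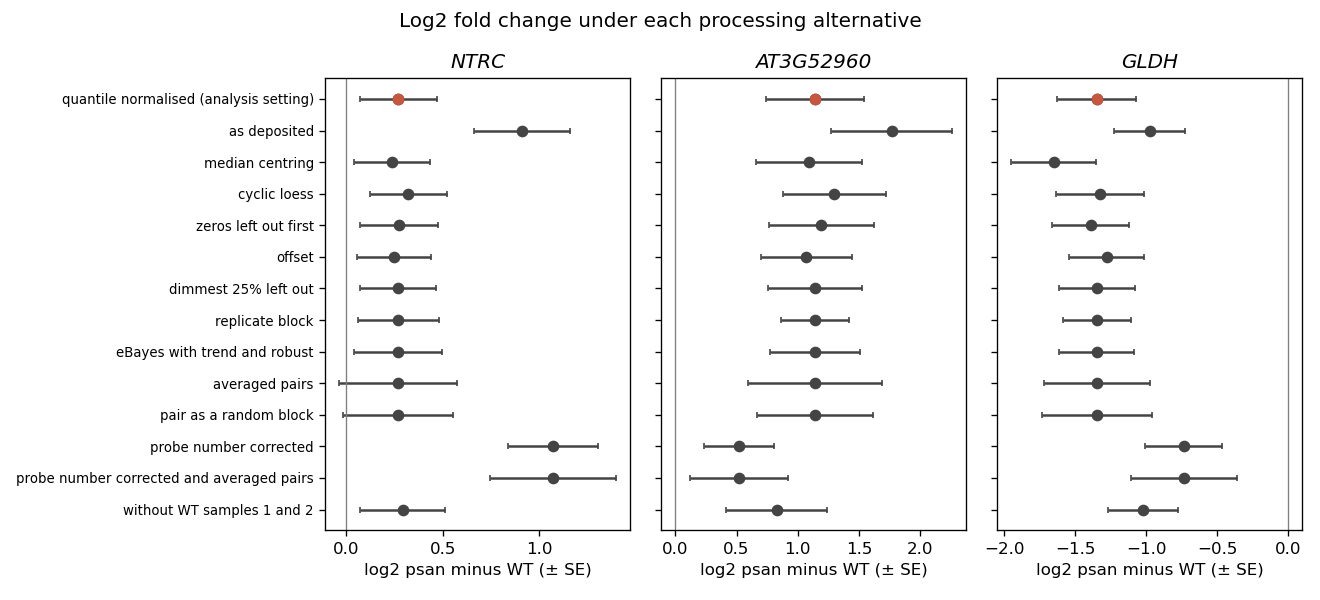
Log2 fold change (psan minus WT) ± SE of NTRC, AT3G52960 and GLDH under the analysis setting (red) and 13 alternatives. No value turned sign. NTRC ran from 0.24 with median centring to 1.07 with the probe number corrected, AT3G52960 from 0.52 to 1.77, and GLDH from -1.65 to -0.74.

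Other genes were taken from 12 lists with 125 loci, covering thiol redox, ascorbate, antioxidant enzymes, plastid thioredoxin targets, mitochondrial complex I and cytochrome c. Of these loci, 11 had a single-gene probe, the 3 genes above and 8 others. The 8 were AT2G04700 and SRX of thiol redox, 4 plastid enzymes known as targets of thioredoxins or NTRC, and 2 genes listed for complex I. These 8 were tested in the limma fit over all 3376 probes with a value above 0 in both groups, where 29.9% of probes had a Benjamini-Hochberg adjusted p under 0.05, 14.3% higher and 15.6% lower in psan. Of the 8 genes, 1 rose and 3 fell past this threshold, or 50.0%, with a median log2 fold change of -0.59, against -0.015 over all probes tested. With averaged pairs, 1 of the 8 passed, AT5G58330, and 145 probes did in all. The difference from all probes was not tested. The lists, too, were chosen with earlier results of these data known, which limits what the p-values of these 8 genes can show. The cytosolic and mitochondrial NADPH-thioredoxin reductases, thioredoxins, glutaredoxins, ascorbate peroxidases, glutathione enzymes, superoxide dismutases, catalases and methionine sulfoxide reductases on the lists lacked a single-gene probe and are not described here. In the ascorbate synthesis list, GLDH was the 1 gene of 10 with such a probe.

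On the ferredoxin side of thiol reduction, AT2G04700, listed as the catalytic subunit of ferredoxin-thioredoxin reductase, fell. Its lowest, median and highest deposited intensities were 0.605, 0.685 and 0.731 in WT and 0.321, 0.481 and 0.683 in psan, with psan array 1 inside the WT range. Its groups did not overlap after normalisation, as held in this direction for 14.2% of the 2243 probes above 0 on all arrays. Psan minus WT was then -0.86 ± 0.21 (SE) on the log2 scale (limma adjusted p = 0.00888). With the probe number corrected, its groups overlapped and it had -0.63 (adjusted p = 0.0439). Averaged pairs on top of that correction gave an adjusted p of 0.260. On deposited values (-0.53, adjusted p = 0.0687), with averaged pairs (adjusted p = 0.120) and with a random block of pairs (0.115) it did not pass. SRX, sulfiredoxin, which repairs overoxidised 2-Cys peroxiredoxins, was listed at 0 on 1 WT and 5 psan arrays. Its other WT values lay between 0.0437 and 0.0815, and its 1 psan value above 0 was 0.0146, on array 4, so the fit had a single psan value. SRX did not pass in that fit, with a log2 fold change of -1.54. It had -2.21 on deposited values, -2.73 with median centring, -2.87 with cyclic loess and -2.52 with zeros left out first. It passed under each of these alternatives, but they rested on the same 1 psan value. With an offset, which kept its zeros, SRX had -1.67 (limma adjusted p = 0.00834).

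Among 4 plastid enzymes known as targets of thioredoxins or NTRC, AT5G58330, the NADP-dependent malate dehydrogenase that exports reducing power from the plastid, rose. Its lowest, median and highest deposited intensities were 0.687, 1.10 and 1.34 in WT and 3.64, 4.17 and 4.46 in psan. Each psan array lay above all WT arrays, as held in this direction for 17.0% of the 2243 probes above 0 on all arrays. The log2 fold change was 1.96 ± 0.17 (SE) (limma adjusted p = 1.14e-05), or 1.97 with the probe number corrected. It passed under all alternatives except the probe number corrected together with averaged pairs (adjusted p = 0.0576).

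SBPASE, sedoheptulose-bisphosphatase of the Calvin cycle, fell. Its lowest, median and highest deposited intensities were 0.739, 0.842 and 1.17 in WT and 0.329, 0.462 and 0.753 in psan. Only psan array 3 lay inside the WT range. After normalisation it stood at -1.26 ± 0.23 (SE) in log2 fold change (limma adjusted p = 0.00157), a call that averaged pairs ended (adjusted p = 0.0683). PRK, phosphoribulokinase of the same cycle, had 0.52 ± 0.31, or -0.049 with median centring, and did not pass (adjusted p = 0.233). CHLM, the magnesium protoporphyrin methyltransferase of chlorophyll synthesis, had -0.33 ± 0.30, or 0.37 on deposited values, and did not pass either (adjusted p = 0.444). Without WT arrays 1 and 2, both passed, PRK with 0.87 (adjusted p = 0.0299) and CHLM with -0.69 (adjusted p = 0.0199).

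Of 2 genes listed for mitochondrial complex I, the complex that needs GLDH for its assembly, AT4G02580 fell, at -1.62 ± 0.47 (SE) in log2 fold change (limma adjusted p = 0.0313). It was listed at 0 on psan arrays 3 to 6, so the size of its fall rests on psan arrays 1 and 2. Leaving out psan array 1 ended the call (-1.07, adjusted p = 0.217), as did leaving out WT array 2 (0.0534), 5 (0.0536) or 6 (0.0553), WT arrays 1 and 2 together (0.0656), and taking the sample number as a block (0.0739). On deposited values (0.188), with averaged pairs (0.202) and with a random block of pairs (0.133) it did not pass either. With an offset, which kept its zeros, AT4G02580 had -2.40 (limma adjusted p = 0.000655). It also passed with median centring (0.0276), cyclic loess (0.0211) and zeros left out first (0.0177). As a percentile within the array, its highest psan value, 24.1, lay below its lowest WT value, 28.6. On psan arrays 3 to 6 that percentile was only the rank shared by all zeros of the array. How many probes in all did not overlap on the percentile scale was not computed. The probe of AT4G02580 stood in the same low row as NTRC, and with the probe number corrected this gene had -0.86 (adjusted p = 0.249). AT5G47890 had 0.12 ± 0.50 and did not pass (adjusted p = 0.879), with -0.35 after correction for the probe number, -0.19 without WT array 2 and -0.12 without psan array 3.

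**Figure D5:**
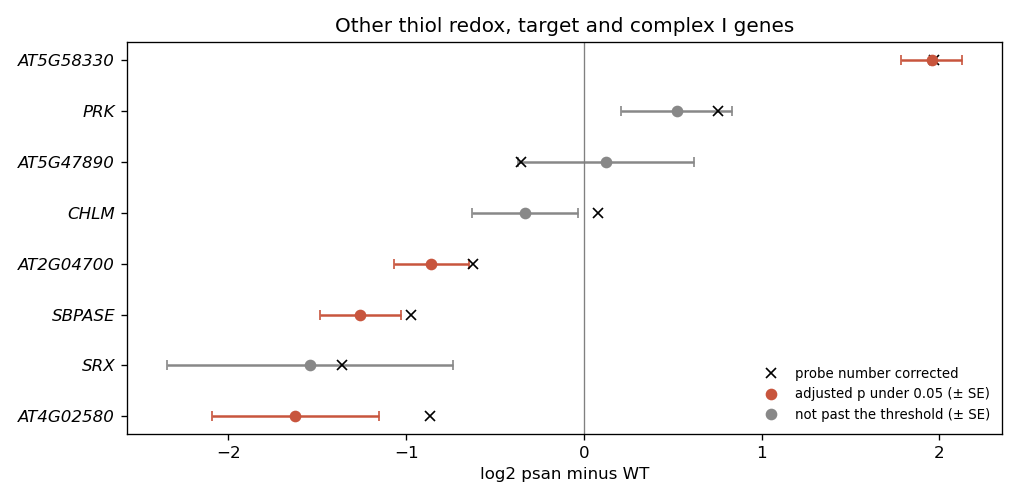
Log2 fold change (psan minus WT, normalised) ± SE of 8 other genes from the pathway lists, red where the limma adjusted p was under 0.05, with crosses for values after correction for the probe number. AT5G58330 was 1.96 by the analysis setting and 1.97 corrected, whereas AT4G02580, above 0 on only 2 psan arrays, went from -1.62 to -0.86, and SRX was above 0 on only 1.

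The genes with the most similar course over the 12 arrays were sought among 425 other single-gene probes above 0 on all arrays, by Pearson's r of normalised log2 values. For AT3G52960 the closest was AT2G28540 (r = 0.936), whose probe number, 238, differs from 1966 by 1728, exactly 6 periods. The next were AT5G59250 (r = 0.898), in the same row 20, and AT5G55580 (r = 0.878), in row 19. For GLDH they were AT3G47980 (r = 0.942), AT1G68660 (r = 0.938) and AT1G79220 (r = 0.930), in rows 24, 7 and 17. Each of these r spans both groups and so takes in any difference between them. On deviations from the group means, r was 0.889, 0.858 and 0.773 for the 3 genes most like AT3G52960 and 0.813, 0.763 and 0.869 for those most like GLDH. AT3G47980 lies on the same chromosome as GLDH with 6 annotated genes between them. For NTRC they were AT1G18290 (r = 0.874), AT5G48830 (r = 0.759) and AT5G02830 (r = 0.745), in rows 19, 20 and 10, away from row 3, with r of 0.905, 0.756 and 0.706 on deviations from the group means. All these values share the 12 arrays, their pairs and the normalisation.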

How the data were processed

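The deposited table held intensities on a linear scale for 12 samples, from exact 0 to just under 100 per array, as the authors deposited them. The labels state neither their scaling nor the array type. Groups and sample numbers came from the sample titles. Probes were named from the platform annotation, 692 with 1 symbol, 870 with several and 1877 unnamed, and 690 of the 692 matched the TAIR10.1 gene table, used for names and gene order only. No sequence of these genes was used here.

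After quantile normalisation between arrays, values of 0 were dropped and the log2 scale was taken for a fit in limma 3.58.1 and R 4.3.3 (lmFit, eBayes, two-sided, psan minus WT). P-values were adjusted by Benjamini-Hochberg over 3376 probes with a threshold of 0.05. The fit was run on simulated data with independent arrays. These had neither like pairs nor an effect of the probe number, so that run cannot speak to either. For arrays, their number limits the precision. Figures used matplotlib 3.10.9.

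The members, lists and tests, and the repeating period of probe numbers, were chosen with earlier results of these data known. Named were the 3 genes, PSAN, every list gene with a single-gene probe and, per gene, the 3 probes most like it. For a gene with several probes, the brightest stood for it. Alternatives were other scalings, an offset of 0.0223, dim probes left out, blocks, averaged pairs, a correction for the probe number (effects of 24 rows and 12 columns within a period, fitted per array to deviations from probe means) and arrays left out. Same-numbered WT and psan arrays were not taken as pairs in the analysis setting, and the labels do not say whether they pair. Their deviations correlated from -0.155 to -0.0415 for numbers 1 to 4, but with 0.228 and 0.217 for numbers 5 and 6. Taking the sample number as a block was among the alternatives.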

Additional observations from a re-analysis of the deposited data

Results flagged for a closer look

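A lone array apart from the rest of its group was looked for in 21 groups of 6 arrays and found in 1, and about 1.05 would be found by chance. The normalised log2 intensity of AT5G47890, listed for mitochondrial complex I, was -4.33 on WT array 2, against -2.82 to -2.11 on the other WT arrays, a gap of 0.681 of the range. None of the groups of NTRC, AT3G52960 or GLDH stood out in this way.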

How the results depend on the processing

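NTRC, AT3G52960 and GLDH kept their direction under all alternatives run. NTRC, 0.27, moved beyond the spread between arrays on deposited values (0.91) and after correction for the probe number (1.07, also with averaged pairs), as did GLDH, -1.35, with the probe number corrected (-0.74, also with averaged pairs). AT3G52960, 1.14, went to 1.77 on deposited values and to 0.52 with the probe number corrected. Its spread between arrays was wider, and both values stayed within it. Leaving out each array gave 0.18 to 0.32 for NTRC, 0.91 to 1.32 for AT3G52960 and -1.51 to -1.19 for GLDH. The median over all probes, -0.015, was 0.46 as deposited and -0.20 with median centring. Of 1010 called probes in the analysis setting, 484 were higher and 526 lower. On deposited values it was 753 and 254, and with median centring 340 and 677. The count fell to 145 with averaged pairs, 16 when the probe number was corrected as well, 553 with the random block of pairs, and 586 at an adjusted p under 0.01, with 891 to 980 when each array was left out. The replicate block gave 896 calls. Of the 8 other list genes, 4 passed, with 1 under averaged pairs (AT5G58330), 0 when the probe number was corrected as well, 2 with the random block of pairs, 3 on deposited values, with the dimmest 25% of probes left out, with the replicate block and with the probe number corrected, 5 with median centring, cyclic loess, zeros left out first, an offset and without WT arrays 1 and 2, and 3 to 4 with each array left out. The signs of 3 genes that did not pass turned: PRK to -0.049 with median centring, CHLM to 0.37 on deposited values and 0.079 with the probe number corrected, with or without averaged pairs, and AT5G47890 to -0.35 under both these corrections, -0.29 without WT arrays 1 and 2, and from -0.19 to 0.48 with each array left out. The counts on deposited values, with median centring, cyclic loess and zeros left out first include SRX, which had 1 psan value above 0. SRX and AT4G02580 were not tested with the dimmest 25% of probes left out. The causes were not tested, but averaging leaves fewer samples.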
